A study of Bos taurus with 28 samples.

Results

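The mitochondrial ribosomal protein genes are the nuclear genes named MRPL and MRPS. They were taken by symbol from the platform annotation, as every symbol made of MRPL or MRPS, a number and at most 1 further letter. This gave 63 genes on 66 probes and 132 spots: 42 MRPL and 21 MRPS genes. All 63 passed the filter on missing values, of 6958 genes tested in all, and 43 had a value in every cow. Their levels were not used to choose them, although results of these data were known when the group was chosen.

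Liver RNA came from 14 Holstein cows that had calved at least once before and were sampled early after calving. The ketotic group held 7 cows in which ketosis was brought on by restricting feed to 50% of intake, and the healthy group held 7 cows fed freely. The design text starts the restriction on day 5 after calving and ends it at clinical signs or on day 14, whereas the sample labels start it on day 4; all cows had passed an examination on day 4. Each cow had 2 arrays with the dyes exchanged, both against a common reference RNA pooled from cattle tissues, so n counts cows. Values are log2 ratios of liver over reference with each array centred on its median, averaged over a cow's arrays. A value of 0 is thus a gene whose liver-to-reference ratio equals that of the middle probe of its array. A difference is the ketotic mean minus the healthy mean of these ratios. The comparison asked which liver genes differ between the states.

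Mitochondria keep a ribosome of their own, which makes the few proteins still encoded by mitochondrial DNA, all of them parts of the respiratory chain or the ATP synthase. Its RNAs come from mitochondrial DNA, and its proteins are encoded in the nucleus, made in the cytosol and imported. Some of these proteins descend from bacterial ribosomal proteins and others were added in the mitochondrial lineage. MRPL names mark the large subunit, which joins amino acids and holds the exit tunnel, and MRPS names the small subunit, which reads the messenger RNA. A few names mislead: MRPS18A sits in the large subunit, and MRPS36, also called KGD4, is now placed in the 2-oxoglutarate dehydrogenase complex.

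Healthy cow 7 stood apart. It correlated across probes at r = 0.363 to 0.462 with other cows, while the other 13 cows correlated with each other at 0.716 or more. Hepatocyte markers in this cow had a median centred ratio of 3.82, the lowest of the 14 cows, and stellate cell and fibroblast markers one of 0.50, the highest. Ketotic cows lacked a usable value at more spots, 16.5% ± 4.49 of all spots against 11.9% ± 2.80 in healthy cows, and their ratios spread more, with a median absolute deviation of 1.40 ± 0.185 against 1.12 ± 0.128 (SD, n = 7 each). Of member spots, 5.47% ± 5.30 had no usable value in ketotic and 1.84% ± 1.92 in healthy cows. Hepatocyte markers lay above the array median on 28 of 28 arrays. Their median ratio per cow ran from 5.54 to 7.02 in ketotic and from 3.82 to 7.36 in healthy cows. Of 15 hepatocyte markers 2 passed as higher in ketotic cows, beside 0.92% of all genes. The difference was above 0 for 13 of them, with a median of 0.59, against -0.18 over all genes, and of 0.29 without healthy cow 7. Macrophage markers passed as lower for 3 of 8 genes, beside 12.4% of all genes. Their per-cow median ratios were 1.01 to 3.09 in ketotic and 0.53 to 3.49 in healthy cows. The part of these differences in the results below was not tested.

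Most genes of the mitochondrial ribosome had a lower mean ratio in ketotic than in healthy livers. Of the 63 genes, 16 passed as lower and 0 as higher by limma with Benjamini-Hochberg adjustment over all genes at 0.05. That is 25.4% of members, against 12.4% of all genes called lower and 0.92% called higher, or 13.4% in either direction. At an unadjusted p below 0.05 there were 32 of 63 members lower and 1 higher, beside 24.4% of all genes lower and 4.01% higher. The difference was below 0 for 52 members, 82.5%, where 67.2% of all genes lay below 0. The median member difference was -0.40, with quartiles of -0.71 and -0.11, against -0.18 over all genes. In whole liver, less messenger RNA per cell and fewer of the cells that hold it cannot be told apart.

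**Figure D1:**
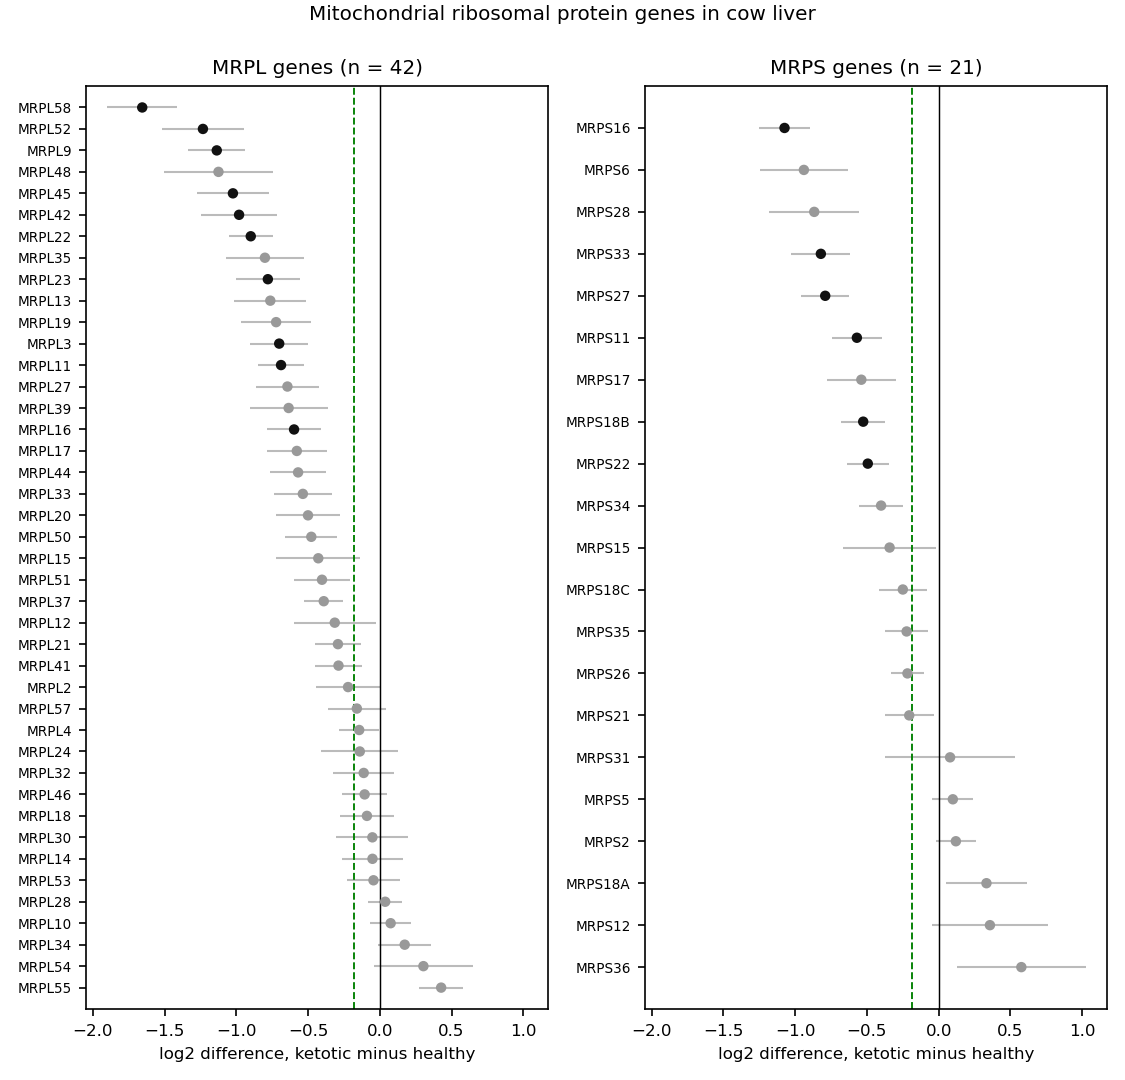
Difference of the centred log2 ratio, ketotic minus healthy cows, for 42 MRPL genes (left) and 21 MRPS genes (right), ordered by difference; bars are limma standard errors. Black points passed at an adjusted p of 0.05, grey points did not, and the dashed line is the median of -0.18 over all genes tested. The 16 black points all lie left of that line, and 11 members lie right of 0.

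The groups did not overlap for 11 members, each with every ketotic cow measured below every healthy cow measured. This is 17.5% of members, against 5.39% of all genes. Of the 16 that passed, 10 had groups apart in this way, and in 15 every ketotic cow measured lay below the healthy mean. Both counts follow in part from the call itself, which used the same values. At least a 2-fold difference downward was found for 6 of 63 members and for 3.45% of all genes. Of these 6 members 5 passed, the other being MRPL48. Without healthy cow 7, 26 of 63 members passed as lower and 0 as higher, with a median difference of -0.47; the share over all genes was then 18.4%. Of the 16 members, 15 passed again, and MRPL16 missed the threshold (adjusted p = 0.0567).

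MRPL58 had the largest fall. This protein (gene ID 515465), a relative of bacterial release factors that is built into the large subunit, can free peptides from stalled ribosomes. Its ratios had a lowest value of -2.39, a median of -1.80 and a highest of -1.01 in ketotic cows, against -0.41, -0.22 and 0.47 in healthy cows. The highest ketotic cow thus lay below the lowest healthy cow, and the highest healthy value was that of cow 7. The difference was -1.66 (SE 0.243, 3.15-fold lower, limma adjusted p = 0.00243, n = 7 each), and -1.56 without healthy cow 7.

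Among the large subunit proteins with a bacterial counterpart, MRPL9, MRPL22, MRPL11, MRPL23, MRPL3 and MRPL16 fell. MRPL9 (gene ID 505981) had ratios of -2.26, -1.19 and -0.80 as lowest, median and highest in ketotic cows, against -0.54, -0.10 and 0.02 in healthy cows. It fell by 1.14 on the log2 scale (SE 0.200, adjusted p = 0.00374), and its lowest healthy value came from cow 7. The groups stayed apart with that cow included.

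MRPL22 (gene ID 614639), whose counterpart lines the peptide exit tunnel, was measured in 6 cows of each group. Its lowest, median and highest ratios were -1.05, -0.72 and -0.58 in ketotic cows, against -0.16, 0.14 and 0.34 in healthy cows. All 6 ketotic values lay below 0 and below every healthy value, a difference of -0.90 (SE 0.153, adjusted p = 0.00383); ketotic cow 5 and healthy cow 7 had no value.

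MRPL11 (gene ID 515990), at the base of the stalk where translation factors bind, had a narrow spread in ketotic cows. Its ratios were -0.61, -0.46 and -0.34 as lowest, median and highest in ketotic cows, against -0.18, 0.13 and 0.89 in healthy cows. The SD was 0.117 in ketotic and 0.353 in healthy cows, and the groups did not overlap. The difference was -0.69 (SE 0.158, adjusted p = 0.0125), and -0.58 without healthy cow 7, which had the highest value.

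MRPL23 (gene ID 508825), near the mouth of the exit tunnel, was well above the array median in both groups. Its ratios were 1.01, 1.57 and 2.35 as lowest, median and highest in ketotic cows, against 1.99, 2.41 and 2.91 in healthy cows. Here 2 ketotic cows, 1 and 7, reached into the healthy range. The difference was -0.78 (SE 0.223, adjusted p = 0.0318), and -1.20 with arrays scaled to one spread (adjusted p = 0.00275). MRPL3, whose counterpart lies close to the peptidyl transferase centre, fell by 0.70 (adjusted p = 0.0356), and MRPL16 by 0.60 (adjusted p = 0.0490), the value nearest to the threshold. Under the alternative settings that tested them, MRPL16 passed in 10 of 33, MRPS22 in 11 of 28 and MRPS11 in 14 of 34. MRPL3 passed in 18 of 33, MRPL42 in 18 of 28, MRPS18B in 21 of 34 and MRPL23 in 23 of 34.

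Of the large subunit proteins with no bacterial counterpart, MRPL52, MRPL45 and MRPL42 fell. MRPL52 (gene ID 509469) had ratios of -3.23, -1.77 and -1.17 as lowest, median and highest in the 5 ketotic cows measured, against -1.04, -0.82 and -0.57 in 7 healthy cows. The groups did not overlap, and the spread was wider in ketotic cows, with an SD of 0.790 against 0.170. The difference was -1.23 (SE 0.285, 2.35-fold lower, adjusted p = 0.0149), and ketotic cows 1 and 3 had no value. It was -1.82 with liver in Cy3 and -0.71 with liver in Cy5. MRPL52 was not tested when probes of large dye difference were left out.

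MRPL45 (gene ID 511479) holds the ribosome at the inner membrane beside the tunnel exit. Its ratios were -3.51, -2.13 and -1.73 as lowest, median and highest in ketotic cows, against -1.70, -1.35 and -0.97 in healthy cows. The gap between the groups was small, and ketotic cow 5 was far the lowest. The difference was -1.02 (SE 0.252, adjusted p = 0.0170), and leaving out ketotic cow 5 gave -0.82.

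MRPL42 (gene ID 614148) had ratios of -2.17, -1.04 and -0.61 as lowest, median and highest in 5 ketotic cows, against -0.85, -0.00 and 0.16 in 7 healthy cows. The groups overlapped, since healthy cow 6 lay below the highest ketotic cow. The difference was -0.98 (SE 0.264, adjusted p = 0.0275).

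In the small subunit, MRPS16, MRPS18B and MRPS11 fell among proteins with a bacterial counterpart, and MRPS27, MRPS33 and MRPS22 among those without. MRPS16 (gene ID 510899), needed for assembly of the subunit in humans, had the second smallest p of all members. Its ratios were -2.13, -1.18 and -0.92 as lowest, median and highest in ketotic cows, against -0.52, -0.25 and -0.07 in healthy cows. The groups lay well apart, with a difference of -1.07 (SE 0.176, 2.11-fold lower, adjusted p = 0.00303).

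MRPS27 (gene ID 514740) is a protein with pentatricopeptide repeats, a fold common in RNA-binding proteins of organelles. Its ratios were -0.96, -0.59 and -0.27 as lowest, median and highest in 6 ketotic cows, against -0.10, 0.17 and 0.74 in 7 healthy cows. None of these 6 ketotic cows reached the healthy range, and healthy cow 6 lay far above the other healthy cows. The difference was -0.79 (SE 0.166, adjusted p = 0.00920), and -0.70 without healthy cow 6. Ketotic cow 5 had no value, since both arrays of a cow were required. With 1 array enough for a cow, the difference was -0.58 and did not pass (limma adjusted p = 0.155).

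MRPS33 (gene ID 523435), a small protein of the subunit, had ratios of -2.001, -0.92 and -0.59 as lowest, median and highest in 7 ketotic cows, against -0.39, -0.28 and 0.01 in 6 healthy cows. The groups did not overlap, with a difference of -0.82 (SE 0.206, adjusted p = 0.0197). MRPS22 fell by 0.49 (adjusted p = 0.0429) over 5 ketotic and 6 healthy cows whose values did not overlap. MRPS11, on the platform of the subunit, fell by 0.57 (adjusted p = 0.0420) with overlapping groups.

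**Figure D2:**
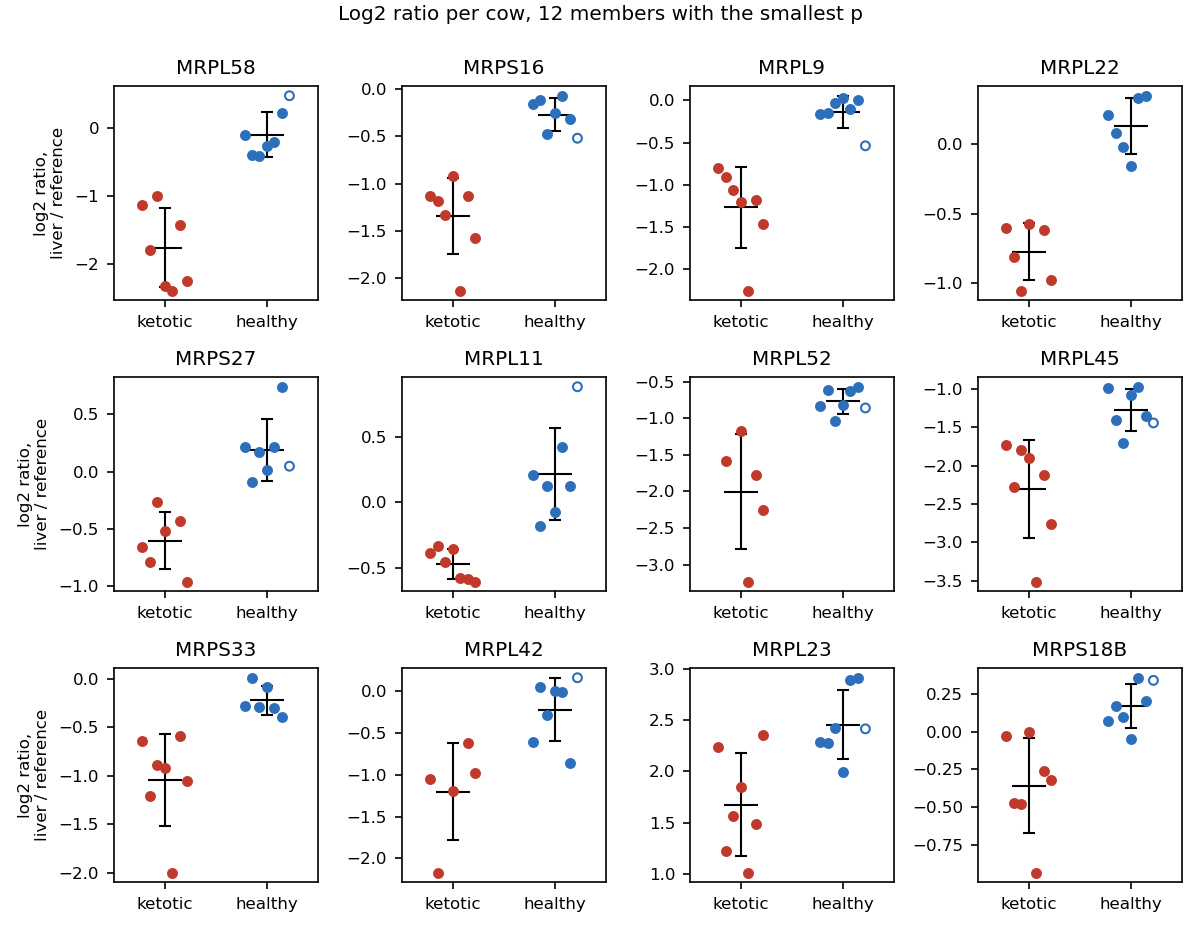
Centred log2 ratio of liver over reference in each cow for the 12 members with the smallest p; ketotic cows stand left and healthy cows right, with lines at the mean and 1 SD to each side. Open circles are healthy cow 7. For 9 of the 12 genes no ketotic cow with a value reaches the healthy range, the exceptions being MRPL42, MRPL23 and MRPS18B.

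The MRPS18 genes are 3 relatives of 1 bacterial protein, and 1 of the 3 passed. MRPS18B (gene ID 510824) fell by 0.53 (SE 0.152, adjusted p = 0.0336), with ratios of -0.93, -0.32 and -0.01 as lowest, median and highest in ketotic cows, against -0.05, 0.17 and 0.36 in healthy cows. Its groups overlapped by a narrow margin, at ketotic cows 1 and 4 and healthy cow 4. MRPS18C had a difference of -0.25 (adjusted p = 0.357) and of -0.13 without healthy cow 7; it was 0.15 with liver in Cy3 and -0.68 with liver in Cy5. MRPS18A, the one in the large subunit, had a difference of 0.33 (SE 0.281, adjusted p = 0.475), which ran from 0.19 to 0.51 with 1 cow left out and was -0.09 with the values as deposited. No test between these genes was made.

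Ketotic cow 5 was the lowest ketotic cow for 27 of the 53 members it had a value for, among them 10 of the 16 that passed. Another 4 of the 16 had no value in this cow. It also had the most member spots without a usable value, 17.05%. Without it 12 members passed as lower, beside 9.85% of all genes, and the median difference was -0.33 over members and -0.16 over all genes. Healthy cow 7 was the lowest healthy cow for 22 and the highest for 19 of its 55 members. For the remaining cows these counts ran from 1 to 14.

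Of the 47 members that did not pass, 36 had a difference below 0. In 14 members the adjusted p lay between 0.05 and 0.10, and 13 of these differences were below 0. MRPL48 had the largest, -1.12 (SE 0.381, adjusted p = 0.0677), with 5 ketotic cows measured. Its ratios were -1.37, -0.61 and -0.20 as lowest, median and highest in ketotic cows, against -0.45, 0.09 and 1.60 in healthy cows, so the groups overlapped widely.

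MRPS6 was the one member with groups apart that did not pass. Its ratios were -3.29, -2.33 and -1.92 as lowest, median and highest in ketotic cows, against -1.91, -1.57 and 0.22 in healthy cows. The groups almost touched, and the highest healthy value was that of cow 7. The difference was -0.94 (SE 0.306, adjusted p = 0.0544), and -0.67 with an adjusted p of 0.0302 without that cow. MRPS28 had a difference of -0.87 (adjusted p = 0.0814) and MRPL35 one of -0.80 (adjusted p = 0.0625); without healthy cow 7 these were -1.03 (adjusted p = 0.0227) and -0.92 (adjusted p = 0.0243). MRPL12, which forms the flexible stalk of the large subunit, had a difference of -0.31 (SE 0.287, adjusted p = 0.516), against -0.57 (adjusted p = 0.0365) without healthy cow 7, whose value of -1.84 lay below all others.

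A difference above 0 was found for 11 members, and 0 of them passed. MRPL55, a large subunit protein with no bacterial counterpart, came nearest. Its ratios were 0.43, 0.74 and 1.08 as lowest, median and highest in ketotic cows, against 0.0046, 0.24 and 0.78 in healthy cows. All 7 ketotic cows lay above the healthy mean, though the groups overlapped, and the difference was 0.43 (SE 0.151, adjusted p = 0.0745). It passed as higher when arrays were centred on the same probes (0.56, adjusted p = 0.0378).

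MRPS36, the dehydrogenase subunit, had the largest difference above 0, 0.58 (SE 0.451, adjusted p = 0.436). Its ratios were 2.02, 2.63 and 3.32 as lowest, median and highest in ketotic cows, against -0.58, 2.46 and 3.22 in healthy cows. The low healthy value was that of cow 7, and without it the difference was 0.14. MRPL54 likewise had a difference of 0.0083 without that cow and 0.30 with it, and MRPL34 one of 0.019 without it and 0.17 with it. The sign of MRPL54 turned with the scaling, to -0.10 as deposited, -0.34 with one spread and -0.07 with quantile normalisation, and it was -0.20 with empty spots in the model. MRPL34 was at -0.23 as deposited. MRPS12, at the decoding site, had a difference of 0.36 (SE 0.403, adjusted p = 0.613), with ratios of -0.78 to 1.98 in ketotic cows, against -1.33 to 0.67 in healthy cows. This difference was 0.036 without ketotic cow 7 and 0.59 without ketotic cow 6.

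MRPL and MRPS genes were then set side by side. Of 42 MRPL genes 10 passed as lower, 23.8%, and of 21 MRPS genes 6, 28.6%, beside the 12.4% of all genes. The median difference was -0.45 for MRPL and -0.34 for MRPS genes, with 37 and 15 differences below 0. MRPL minus MRPS was therefore -0.11, a value with no test. It ran from -0.21 to 0.057 over the alternatives and was above 0 without healthy cow 7 (0.035), with values in all 14 cows (0.057) and without probes of large dye difference (0.016). No direction of MRPL against MRPS held under all settings.

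Within cows, the median over MRPL genes, each gene first centred over cows, was -0.19 ± 0.164 in ketotic and 0.21 ± 0.0943 in healthy cows. For MRPS genes it was -0.16 ± 0.121 in ketotic and 0.16 ± 0.133 in healthy cows (SD, n = 7 each). Healthy cow 7 had 0.35 for MRPL and -0.13 for MRPS genes, a gap of 0.47. In the remaining healthy cows both medians lay above 0, and in ketotic cows all but the MRPL median of cow 1 lay below 0. The median over all genes split in much the same way, at 0.07 to 0.14 in healthy and -0.31 to 0.01 in ketotic cows. Only ketotic cow 6 lay above 0 there among ketotic cows.

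**Figure D3:**
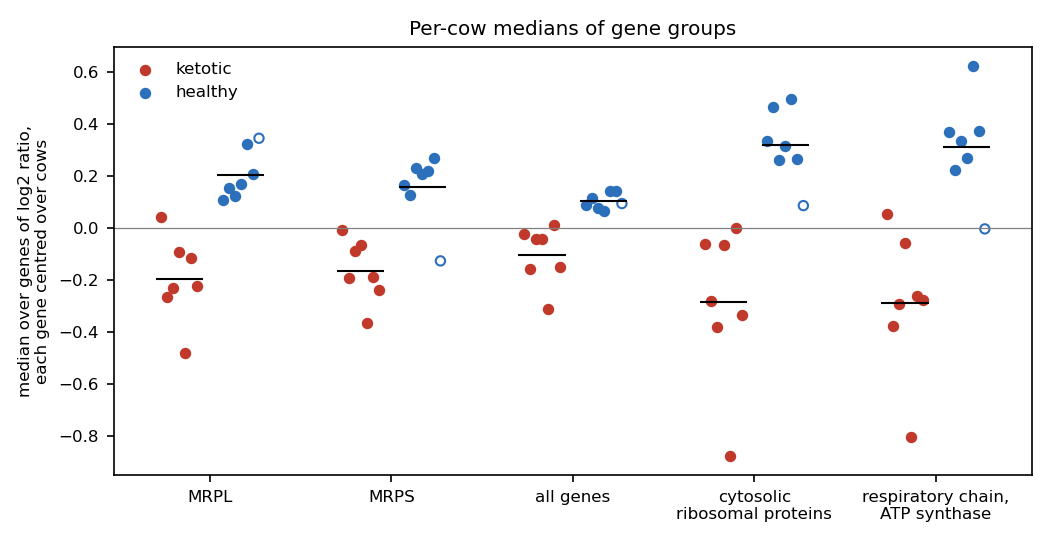
Median over the genes of each group in each cow, every gene first centred over cows (log2 scale); ketotic cows stand left and healthy cows right of each pair, lines are means of 7 cows, and open circles are healthy cow 7. MRPL and MRPS medians of ketotic cows lie between -0.48 and 0.04, and healthy cow 7 is the only healthy cow with an MRPS median below 0.

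The proteins were also grouped by their place in the ribosome and by origin. The counts are read beside the 12.4% of all genes called lower, and the medians beside -0.18 over all genes. The large subunit, with MRPS18A, had 10 of 43 genes lower and a median difference of -0.43, and the small subunit, without MRPS36, 6 of 19 and -0.40. Proteins with a bacterial counterpart had 9 of 39 lower and a median of -0.43, and those added in mitochondria 6 of 22 and -0.40. By subunit and origin together, the counts were 6 of 27 for large bacterial, 3 of 15 for large mitochondrial, 3 of 12 for small bacterial and 3 of 7 for small mitochondrial proteins. The medians of these classes ran from -0.43 to -0.40.

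Relative to the reference pool, the median over members of the group mean ratio was -0.36 in ketotic and 0.0010 in healthy cows. The ketotic mean ratio was above 0 for 20 of 63 members and the healthy mean for 32. MRPL54 was at 3.30 ± 0.458 in ketotic and 2.99 ± 0.880 in healthy cows, and MRPS36 at 2.59 ± 0.430 and 2.02 ± 1.25 (SD, n = 7 each). Both, like MRPL23, were thus far above the array median in liver. The SD was larger in ketotic cows for 33 members, 52.4%, against 40.8% of all genes.

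The dye orientations did not give the same calls. The difference was below 0 in both orientations for 43 members, 68.3% against 53.2% of all genes, and these included all 16 that passed. It was above 0 in both for 8 members, and for 12, 0 of which had passed, the sign differed between the orientations. These signs used a looser filter on missing values than the calls. MRPL14 was above 0 in both through its second probe, while its main difference was -0.05. MRPL58 had a difference of -1.96 with liver in Cy3 and -1.36 with liver in Cy5, MRPS16 of -1.22 and -0.92, and MRPL9 of -1.29 and -0.98. Among the 16 the fall was larger with liver in Cy3 for 14 and with liver in Cy5 for 2. Fitted alone, arrays with liver in Cy3 called 13 of 63 members and 649 of 7432 genes lower. Arrays with liver in Cy5 called 0 members and 11 of 7633 genes lower. At an unadjusted limma p below 0.05 these had 15 of 63 members and 15.04% of all genes lower.

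Of the members with 2 probes, MRPL51 and MRPS21 had probes that disagreed. One MRPL51 probe had a difference of -1.03 (adjusted p = 0.0101 over 10420 probes) and its other probe 0.23 (adjusted p = 0.661). MRPS21 had -0.50 (adjusted p = 0.0486) and 0.088 (adjusted p = 0.860). Over all probes 9.06% passed as lower. Averaged, neither gene passed, with -0.40 (adjusted p = 0.186) for MRPL51 and -0.21 (adjusted p = 0.467) for MRPS21. The second MRPL14 probe had values in only 3 cows of each group and was not tested in the main fit.

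Scaling set how many members passed. Centred on the same 7426 probes in every array, 9 members passed as lower and 1 as higher, with a median of -0.27; 493 of all genes were then lower and 123 higher, against 865 lower and 64 higher with each array's own median. Values as deposited gave 40 members lower, with a median of -0.80 and 2466 of all genes lower. The median over all genes moved as well, to -0.05 and -0.58, and the member median lay 0.22 to 0.23 below it in all 3. These 3 settings differ only by a constant per array, so this gap could hardly change between them. Over the alternatives, the member median minus the median over all genes ran from -0.305 (liver in Cy3) to -0.144 (values in all 14 cows). With the share of empty spots per cow in the model, 6 members and 160 of all genes were lower.

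**Figure D4:**
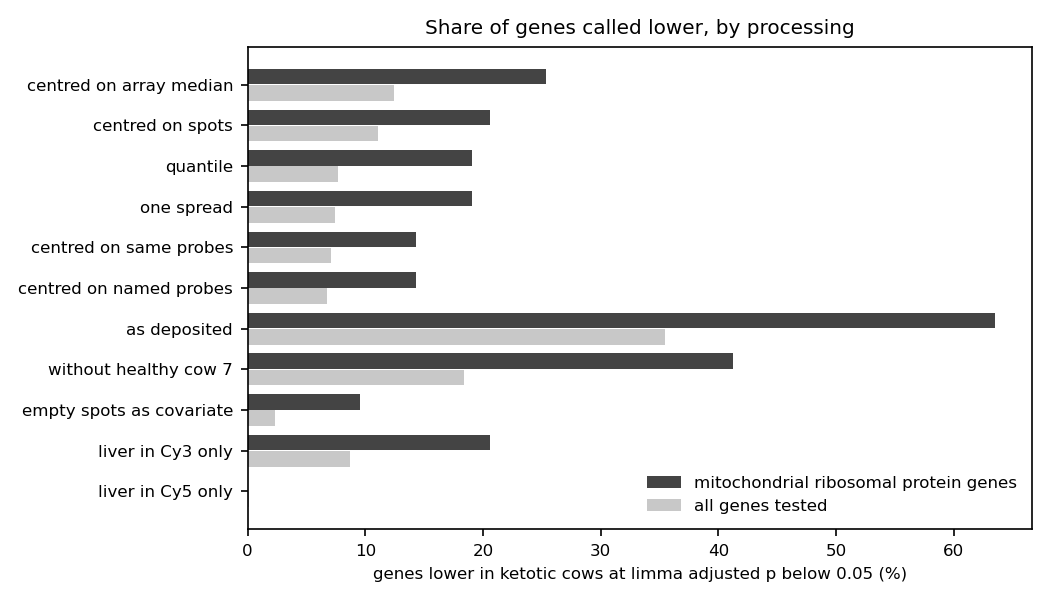
Percent of the 63 mitochondrial ribosomal protein genes (dark) and of all genes tested (light) called lower in ketotic cows at a limma adjusted p of 0.05, under 11 ways of processing. The member share is 25.4% with each array centred on its median and 63.5% as deposited, with 12.4% and 35.4% of all genes; with liver in Cy5 only no member is called.

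Related mitochondrial genes were followed in 6 lists, read beside the 12.4% of all genes called lower. Of 6 translation factors 1 passed as lower, MTRFR, a factor that rescues stalled mitochondrial ribosomes, with a difference of -0.75 (adjusted p = 0.0245). Of 9 genes that charge mitochondrial transfer RNAs 2 did: GATB, a subunit of the amidotransferase that makes glutaminyl-tRNA (-0.80, adjusted p = 0.0210), and HARS2, the histidyl-tRNA synthetase (-0.50, adjusted p = 0.0282).

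Of 20 genes of ribosome assembly and membrane insertion, 3 fell and 1 rose. OXA1L, which inserts newly made proteins into the inner membrane, had ratios of -0.88, -0.40 and -0.25 as lowest, median and highest in ketotic cows, against -0.10, 0.24 and 0.67 in healthy cows. Its groups did not overlap, and it fell by 0.76 (adjusted p = 0.0118). AFG3L2, a protease that trims the MRPL32 protein in mice, fell by 0.74 (adjusted p = 0.0148), and RCC1L, an assembly factor, by 0.80 (adjusted p = 0.0188). METTL17, an assembly factor of the small subunit, rose by 0.80 (adjusted p = 0.0281); it is named because it was the only one of these lists to rise, after its value was seen.

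Of 12 genes of mitochondrial DNA upkeep and transcription 0 passed, nor did any of 3 ribosomal proteins under other names. The smallest p in these lists was that of MTPAP, the mitochondrial poly(A) polymerase (-0.44, adjusted p = 0.220), and AURKAIP1, a small subunit protein (-0.51, adjusted p = 0.228; -0.26 without healthy cow 7). Of 9 regulators of mitochondrial biogenesis, YY1 fell by 0.88 (adjusted p = 0.0471), with 0 of the other 8 passing.

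The cytosolic ribosome and the respiratory chain were set beside the members, with no test between lists. Of 57 cytosolic ribosomal protein genes 31 passed as lower, 54.4%, with a median difference of -0.60. Of 64 genes of the respiratory chain and ATP synthase 27 passed as lower, 42.2%, with a median of -0.59. Both shares were larger than the 25.4% of members, with 12.4% of all genes lower. The per-cow median over members was -0.19 ± 0.157 in ketotic and 0.19 ± 0.0639 in healthy cows, and over all genes -0.10 ± 0.112 and 0.10 ± 0.0303. For cytosolic ribosomal proteins it was -0.28 ± 0.300 and 0.32 ± 0.138 in ketotic and healthy cows, and for the respiratory chain -0.29 ± 0.272 and 0.31 ± 0.188 (SD, n = 7 each).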

How the data were processed

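The authors deposited 1 log2 ratio per spot on each of 28 arrays; scanner, background correction and normalisation are not given in the sources used here. Their direction, likely Cy5 over Cy3, rests on the dyes in the labels and on hepatocyte markers, although 1 ketotic array's fields give the same dye for both channels. Ratios were turned to liver over reference; before that, arrays correlated at a median r of 0.742 with the same liver dye and -0.656 with opposite dyes. Deposited array medians lay between -1.05 and 2.16. Ceiling values (6245) and empty cells (103458) were treated as missing, 5777 exact zeros were kept, and dim spots could not be filtered. Adjacent spots were averaged to 13824 probes before arrays were centred on their medians. Cows were kept for a probe only with both arrays, and probes only with 5 cows per group, leaving 10420 probes. Symbols came from the platform annotation, which can be old: 8645 probes had 1, 105 several and 5074 none, and 8620 matched the reference table by gene ID. Genes are means over probes. Coordinates and sequences are not used here.

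Groups were compared with limma (3.58.1, R 4.3.3; lmFit, eBayes) over 14 cows and 6958 genes, two-sided, with Benjamini-Hochberg adjustment. No batch is named in the labels. The number of cows limits the precision. In 10 simulated runs over 6958 genes with independent normal noise, 200 genes were changed up or down. There limma found 7.53% of changes of 0.5 (log2), 55.0% of 1 and 94.0% of 2, and 5.42% of its calls were false. The data had 929 calls, so these rates need not hold for them. Figures used matplotlib 3.10.9.

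Members, lists and tests were chosen with earlier results of these data known. Named were all passing members, with cow values for the 12 with the smallest p; the 6 largest differences above 0; the 4 largest not passing; MRPS18A, MRPS36, MRPL12 and MRPS12; and of each related list up to 3 passing genes or the one with the smallest p. MRPS18C, MRPL51, MRPS21 and MRPL14 were added for their paralogs or probes after their values were seen. Alternatives covered scaling, ceiling, zeros, dyes, filter, model, probes, threshold and single cows left out.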

Additional observations from a re-analysis of the deposited data

Results flagged for a closer look

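In a group of 7 cows, 1 cow lay far from the others in 11 of 70 groups searched. A rate of 1 in 20 would give 3.5 for independent groups. These groups share the same cows and arrays, so the comparison does not settle whether the count exceeds chance. Of these 11, 8 concerned healthy cow 7. MRPL9 had -0.54 in that cow and at least -0.16 in the other healthy cows. MRPL54 had 1.22, with the next at 2.97, MRPL34 had -0.64, with the next at 0.33, and MRPL12 had -1.84, with the next at -0.32. MRPS6 was high there, 0.22 with the next at -1.49. The median over MRPS genes, centred over cows, was -0.13 in healthy cow 7 and at least 0.13 in the others. Its share of member spots without a usable value was 6.06%, with the next at 1.89%, and its median correlation with the other healthy cows was 0.408, with the next at 0.870.

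The other three concerned other cows. MRPS27 had 0.74 in healthy cow 6, with the next at 0.22. MRPS6 had -3.29 in ketotic cow 5, with the next at -2.46, and that cow lacked 17.05% of member spots, with the next at 5.30%.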

How the results depend on the processing

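The median member difference was below 0 under every alternative, and so was the median over all genes, at -0.58 to -0.05. The 16 passing members, called from these same cows, had differences below 0 in every alternative that tested them. MRPL58, MRPS16 and MRPL9 passed in 33 of 34, missing with liver in Cy5 alone. As deposited, 40 members and 2466 genes were lower and 11 genes higher, with a member median of -0.80. Centred on the same probes, 9 members and 493 genes were lower, 1 member and 123 genes higher, with a median of -0.27. Centred on named probes, chosen after seeing the data, 9 and 468 were lower, 1 and 108 higher, with a median of -0.28. Genes lower and higher were 515 and 35 with one spread and 537 and 25 with quantile normalisation. With liver in Cy5, 0 members were lower, with 11 genes lower and 1 higher. At an unadjusted limma p below 0.05, 15 of 63 members and 15.04% of all genes were lower there. With liver in Cy3, 41 genes were higher. Array weights gave 25 members and 1285 genes (18.5%) lower, and 1 member and 150 genes higher. With empty spots as a covariate 6 members and 160 genes were lower and 8 genes higher. With 1 array enough for a cow 9 members and 660 genes (8.22% of those tested) were lower. Of the 16, MRPL16, MRPL3, MRPL42, MRPS11, MRPS22, MRPS27 and MRPS33 did not pass there. At an adjusted p of 0.10, 29 members and 1245 genes (17.9%) were lower, and 1 member and 150 genes higher; at 0.01, 5 members and 222 genes were lower and 5 genes higher. The member that was higher was MRPL55 each time. With values in all 14 cows, MRPL minus MRPS was 0.057. The cause of these shifts was not tested.

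Leaving out 1 cow at a time gave 9 to 26 members lower and 0 to 1 higher, 616 to 1265 genes lower and 35 to 103 higher, member medians of -0.47 to -0.33, and MRPL minus MRPS of -0.21 to 0.035. The fewest members, 9, passed without ketotic cow 2, 10 without ketotic cow 7, healthy cow 3 or healthy cow 5, and the most, 26, without healthy cow 7. No paired analysis was possible because the replicate numbers only name cows and pair none across groups. Over the named members and alternatives, 724 values kept their call, 27 passed where they had not and 132 no longer passed. The simulation changed 200 of 6958 genes, up or down, whereas 929 genes were called here, most of them lower. Its recovery of 7.53% at a log2 change of 0.5 need not hold for the members. A member that did not pass is not thereby shown to be unchanged.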
